A study of Homo sapiens with 8 samples.

Results

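Chemokine transcripts of a B-cell lymphoma line were followed over a time course of BET inhibition. The genes described are CCL3, CCL3L1, CCL3L3, CCL4L1, CCL5, CXCL9, CXCL10 and CCL22, taken as all probes whose platform annotation gives one of these 8 symbols. That is 12 of the 47231 probes and 8 of the 20046 genes with a named probe, and 11 of the 12 probes were above background. The 8 genes were selected on results of these same arrays, and which of their values chose them is not recorded. Both the difference between the treatments and the change over time are treated as used. Their values are therefore given as a description with no test, and tests are given only for genes outside this set.

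The cells were DOHH2, an established human lymphoma line of germinal centre B-cell origin. One group was exposed to BAY1238097, a small molecule that blocks the bromodomains of BET proteins, the readers of acetylated histones. The other group received the vehicle DMSO, and both groups are the same line with no other agent named. Each group had 4 arrays, 1 each at 4, 8, 12 and 24 h. No time was repeated, and no dose was found in the labels. Nothing there names separate cultures, so the spread between arrays may be partly technical. The SE and p-values of treatment effects below measure how even a difference was over the 4 times. They do not measure a spread between replicate cultures. DOHH2 is a single cell line without the other cells of a lymph node.

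Chemokines are small secreted proteins that attract leukocytes through receptors coupled to G proteins. CCL3, CCL4 and their copies attract T cells and monocytes, and CCL3 binds CCR1. B cells release them after stimulation of the B-cell receptor, and they draw T cells toward the B cell. CCL5 also binds CCR1. CXCL9 and CXCL10 are induced by interferon gamma and attract activated T cells and NK cells through CXCR3. CCL22, made by dendritic cells, macrophages and activated B cells, attracts CCR4-bearing T helper 2 and regulatory T cells.

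The genes lie in 3 places. CCL3, CCL3L1, CCL3L3, CCL4L1 and CCL5 are on chromosome 17, CXCL9 and CXCL10 on chromosome 4 and CCL22 on chromosome 16. CCL3L1 and CCL3L3 are near-identical copies of CCL3, and CCL4L1 is one of CCL4, so their probes can bind each other's transcripts and the copies cannot be told apart here. RefSeq promoter sequences of GRCh38.p14 were found for 5 of the 8 genes. The 250 bases before the annotated start are printed for 4 of these to show how alike the CCL3 copies are and how the interferon-inducible genes differ from them. Capitals mark matches to 3 motifs on either strand: the core of the interferon-stimulated response element (GAAANNGAA), the kappaB consensus and the TATA box (TATAAA). The 4 regions are on the minus strand and are written 5′ to 3′ of the gene, at chr17:36090144-36090393 for CCL3, chr17:36196759-36197008 for CCL3L3, chr4:76007510-76007759 for CXCL9 and chr4:76023498-76023747 for CXCL10.
CCL3: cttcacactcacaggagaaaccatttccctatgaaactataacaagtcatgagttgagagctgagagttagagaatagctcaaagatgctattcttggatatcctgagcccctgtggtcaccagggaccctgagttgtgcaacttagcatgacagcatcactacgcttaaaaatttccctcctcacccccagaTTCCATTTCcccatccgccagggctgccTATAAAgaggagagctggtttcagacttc
CCL3L3: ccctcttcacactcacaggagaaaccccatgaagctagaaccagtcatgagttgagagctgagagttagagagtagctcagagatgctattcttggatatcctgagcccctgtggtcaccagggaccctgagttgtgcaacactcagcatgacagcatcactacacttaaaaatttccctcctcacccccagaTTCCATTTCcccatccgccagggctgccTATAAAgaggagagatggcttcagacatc
CXCL9: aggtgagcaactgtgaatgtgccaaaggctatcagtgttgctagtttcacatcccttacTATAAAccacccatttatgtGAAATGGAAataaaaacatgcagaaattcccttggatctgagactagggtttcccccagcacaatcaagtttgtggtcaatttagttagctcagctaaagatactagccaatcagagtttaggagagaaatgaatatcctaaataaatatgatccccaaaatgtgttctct
CXCL10: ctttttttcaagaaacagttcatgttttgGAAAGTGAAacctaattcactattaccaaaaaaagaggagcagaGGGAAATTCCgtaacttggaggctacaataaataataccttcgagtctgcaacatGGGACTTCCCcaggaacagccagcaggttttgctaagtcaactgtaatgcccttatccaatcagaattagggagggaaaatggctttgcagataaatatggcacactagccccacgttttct

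CCL3 and CCL3L3 shared 234 of 256 aligned positions in this region, an identity of 91.4%, while CXCL9 and CXCL10 shared 54.9%. The response element core stood at -57 to -49 in both CCL3 and CCL3L3, where the minus strand match reads TTCCATTTC, with the TATA box at -29 to -24. In CXCL9 the response element core stood at -171 to -163, and in CXCL10 at -221 to -213. CXCL10 alone of the 4 printed regions held kappaB matches, at -177 to -168 and at -122 to -113. The RefSeq window of CCL22 (chr16:57358533-57358782, plus strand) does not lie at that gene's annotated start. It held overlapping kappaB matches and none of the other motifs. Over all 35116 promoters of the table, the response element core was found in 6.88% and in 4 of the 5 chemokine windows. The kappaB consensus was found in 9.96% and in 2 of the 5, and TATAAA in 10.7% and in 3 of the 5. The TATAAA of CXCL9 stood at -191 to -186, away from its place in the CCL3 copies. CCL3 and CCL3L3 are counted separately, though their windows are largely the same. The GAS element of STAT factors (TTCNNNGAA), found in 6.57% of promoters, and the AP-1 element (TGANTCA), also in 6.57%, were in 0 of the 5. These matches are letters in a window and no measure of binding.

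The arrays differed in brightness, with mean probe intensities of 262 to 366 for BAY1238097 and 264 to 419 for DMSO. The 4 h arrays were the dimmest of both groups. Between 17438 and 19122 probes per array were above background, defined from the brightness of olfactory receptor probes. Of the B-cell markers measured, 6 of 7 were above background (CD22, CD37, CD74, CD79A, CD79B and MS4A1), with summed intensities of 5936 to 8721 for BAY1238097 and 6869 to 12490 for DMSO. T-cell and NK-cell markers were above background for 0 of 5 and 0 of 4 genes. For the myeloid markers it was 3 of 6 (CD14, CD68 and FCGR3A), with summed intensities of 1148 to 1391 for BAY1238097 and 1325 to 1545 for DMSO, and their part in the chemokine values was not tested. Of the germinal centre markers, 1 of 4 was above background (MME). MYC, a gene known to fall under BET inhibition, changed by -1.13 ± 0.21 on the log2 scale (SE, limma adjusted p = 0.0118), and HEXIM1, a marker known to rise, by 0.22 ± 0.08 (adjusted p = 0.0963). The MYC difference shrank with time and was -1.97, -1.16, -0.82 and -0.57 at 4, 8, 12 and 24 h.

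The chemokines divided by direction. CCL5, CCL3, CCL3L1 and CCL3L3 had higher values with BAY1238097 than with DMSO at all 4 times. CXCL9 and CXCL10 had lower values at all 4 times. CCL4L1 was lower at 4 h and higher afterwards, and CCL22 was higher at 4 h and lower afterwards. All values below are deposited log2 values, on which each array has a median of 6.67 and the lowest probes called above background lie at 6.76 to 6.80 by array. Differences between groups are log2 differences, BAY1238097 minus DMSO. In RNA from whole cultures, fewer cells making a transcript and less transcript per cell cannot be told apart.

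**Figure D1:**
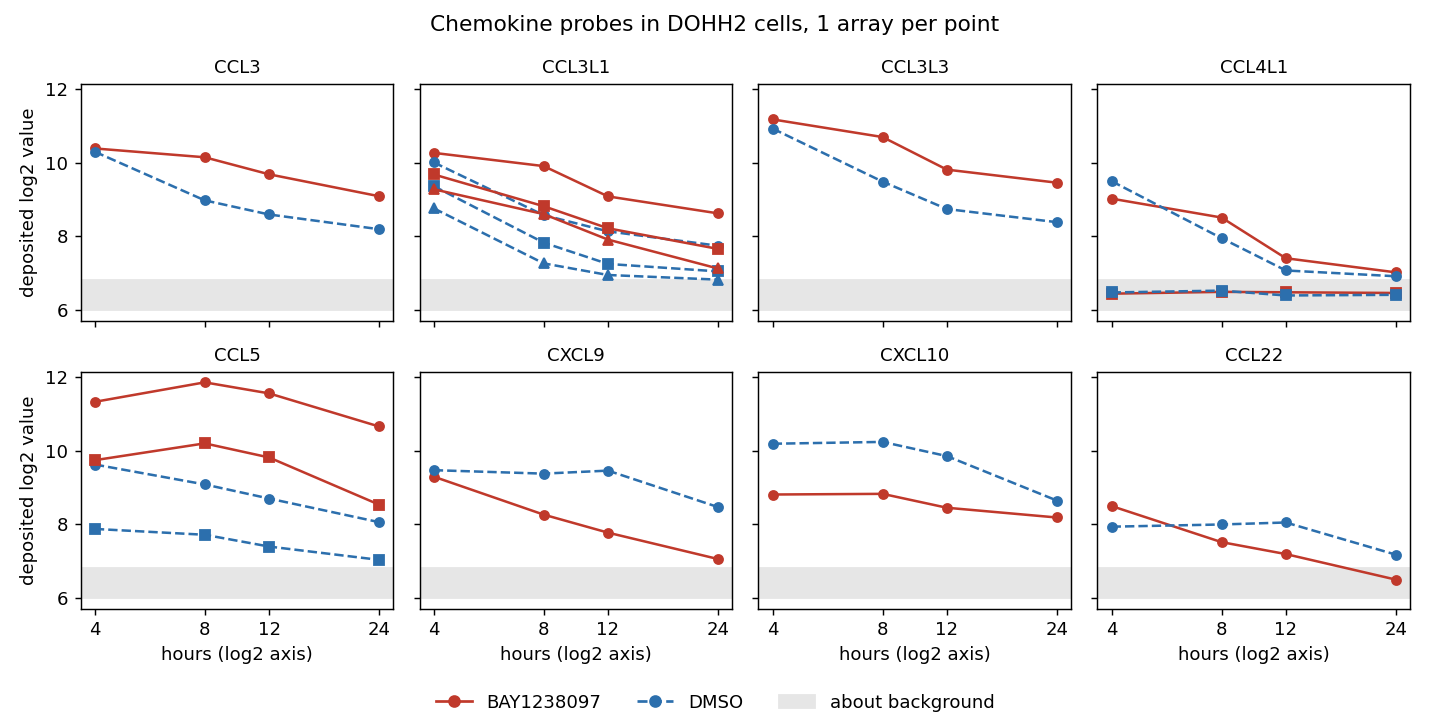
Deposited log2 values (vertical axis) of the 12 chemokine probes by hours of exposure (horizontal axis, log2 spacing), with BAY1238097 in red and solid lines, DMSO in blue and dashed lines, 1 array per point and marker shapes for different probes of a gene. The grey band marks about background. CCL5 lines for BAY1238097 lie above those for DMSO at every time, and CXCL9 and CXCL10 lines lie below.

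CCL5, a chemoattractant for T cells and monocytes, showed the largest differences of the 8 genes. Its brighter probe (ILMN_2098126) read 11.33, 11.86, 11.56 and 10.66 at 4, 8, 12 and 24 h with BAY1238097, against 9.62, 9.08, 8.70 and 8.06 with DMSO. Every BAY1238097 array was above every DMSO array. The level was highest at 8 h with the inhibitor, while with the vehicle the step between 4 and 8 h was -0.54 in these values and 0.06 under median scaling, so the time of its highest value depends on the scaling. The differences were 1.71, 2.77, 2.86 and 2.60, a mean of 2.48 ± 0.53 (SD over 4 times), or 5.59-fold. In linear, unnormalised intensities the same probe read 1796, 3543, 3197 and 1490 with BAY1238097 and 527, 680, 566 and 346 with DMSO.

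The dimmer CCL5 probe (ILMN_1773352) read 9.74, 10.20, 9.82 and 8.53 with BAY1238097 and 7.87, 7.71, 7.39 and 7.03 with DMSO. Its groups did not overlap either, with a mean difference of 2.07 ± 0.47 (SD over 4 times), or 4.20-fold. The probes correlated with r = 0.981 over the 8 arrays, as readings of 1 gene in the same hybridisations. They parted at 24 h, where the difference was 2.60 on the brighter probe and 1.503 on the dimmer one. CCL5 was the only one of the 8 genes whose BAY1238097 arrays all lay above its DMSO arrays, a pattern shown by 1091 of the 10443 genes above background (10.4%). By the size of its change CCL5 ranked 7th from the top of these genes, a description, since it was selected on these same arrays.

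CCL3, an attractant of monocytes and T cells, started level and then separated. Its probe (ILMN_1671509) read 10.39, 10.15, 9.69 and 9.09 at 4, 8, 12 and 24 h with BAY1238097, against 10.30, 8.98, 8.59 and 8.19 with DMSO. At 4 h the groups differed by 0.09, and from 8 h on by 1.17, 1.09 and 0.90. The mean difference was 0.81 ± 0.50 (SD over 4 times), or 1.76-fold. The groups overlapped, since the 4 h DMSO array was above 3 of the BAY1238097 arrays.

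CCL3L3, a copy of CCL3, was read by 1 probe (ILMN_2105573). It read 11.18, 10.70, 9.81 and 9.46 with BAY1238097 and 10.93, 9.49, 8.74 and 8.38 with DMSO. Values fell at each step in both groups, and the difference widened between 4 and 8 h. It was 0.25 at 4 h and 1.21, 1.07 and 1.07 after that, with a mean of 0.90 ± 0.44 (SD over 4 times), or 1.87-fold.

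CCL3L1, a further copy, was read by 3 probes. The brightest (ILMN_1747355) had 10.27, 9.91, 9.09 and 8.62 with BAY1238097 and 10.01, 8.58, 8.13 and 7.74 with DMSO, a mean difference of 0.86 ± 0.45 (SD over 4 times). The other 2 probes gave mean differences of 0.72 ± 0.32 and 0.78 ± 0.46. Their lowest values, at 24 h with DMSO, were 7.05 and 6.82, close to background. Over the 5 probes of CCL3 and its copies the difference ranged between 0.09 and 0.52 at 4 h, between 0.99 and 1.34 at 8 h, between 0.95 and 1.09 at 12 h and between 0.30 and 1.07 at 24 h. These 5 probes correlated pairwise with r of 0.964 to 0.996 over the 8 arrays. Since the transcripts are near-identical, the probes are not independent readings.

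Between 4 and 8 h the CCL3 transcripts parted through a larger step in the vehicle arrays than in the treated ones. CCL3 changed by -0.24 between these times with BAY1238097 and by -1.33 with DMSO. For CCL3L3 the steps were -0.48 with BAY1238097 and -1.45 with DMSO. With arrays scaled by their medians the step of CCL3 was 0.13 with BAY1238097 and -0.78 with DMSO, so the sign of the treated step depends on the scaling. Over 4 to 24 h CCL3 fell by 1.30 on the log2 scale with BAY1238097 and by 2.11 with DMSO, and CCL3L3 fell by 1.72 with BAY1238097 and by 2.55 with DMSO. These falls kept their sign under all 4 scalings.

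CCL4L1, a copy of the T-cell attractant CCL4, did not follow the same order at the start. Its brighter probe (ILMN_1716276) read 9.02, 8.51, 7.40 and 7.02 with BAY1238097 and 9.50, 7.95, 7.07 and 6.91 with DMSO. The treated array was lower at 4 h, by -0.47, and higher by 0.56, 0.33 and 0.11 at 8, 12 and 24 h. The mean difference of 0.13 ± 0.45 (SD over 4 times) is smaller than its spread, and without the 8 h arrays it was -0.01. Over 4 to 24 h CCL4L1 fell by 2.005 on the log2 scale with BAY1238097 and by 2.59 with DMSO, the largest fall of the 8 genes with the vehicle. A further CCL4L1 probe was at 6.44 to 6.49 with BAY1238097 and at 6.39 to 6.52 with DMSO, not above background on any of the 8 arrays. The further ligand genes above background did not include CCL4 itself, so CCL4 is seen here through 1 probe of its copy at most.

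CXCL9, a CXCR3 ligand induced by interferon gamma, was lower at each later time with the inhibitor. It read 9.29, 8.26, 7.77 and 7.05 at 4, 8, 12 and 24 h with BAY1238097, against 9.47, 9.38, 9.46 and 8.47 with DMSO. The vehicle values were close to each other up to 12 h on this scale, with a step of -0.09 between 4 and 8 h that was 0.55 under median scaling. The difference grew between 4 and 12 h and was -0.18, -1.11, -1.69 and -1.41 at the 4 times. The mean was -1.10 ± 0.66 (SD over 4 times), or 2.14-fold lower, and at 12 h the treated array was 3.22-fold lower. The groups overlapped through the 4 h treated array and the 24 h vehicle array.

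CXCL10, the other CXCR3 ligand, was already lower at 4 h. It read 8.81, 8.83, 8.45 and 8.18 with BAY1238097 and 10.19, 10.24, 9.85 and 8.65 with DMSO. The difference was -1.38, -1.41 and -1.41 at 4, 8 and 12 h and -0.46 at 24 h, with a mean of -1.16 ± 0.47 (SD over 4 times), or 2.24-fold lower. The treated arrays at 4 and 8 h read above the 24 h vehicle array, which was lower than the other 3 of its group. Between 12 and 24 h CXCL10 changed by -0.27 with BAY1238097 and by -1.21 with DMSO, so the smaller gap at 24 h came with a step in the vehicle arrays. CXCL9 and CXCL10 correlated with r = 0.842 over the 8 arrays. Among the 10443 genes above background CXCL10 and CXCL9 had the 42nd and the 62nd lowest change. These ranks too are descriptions of genes selected on these arrays.

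CCL22, the ligand of CCR4, crossed over with time. It read 8.49, 7.51, 7.19 and 6.49 with BAY1238097 and 7.93, 7.99, 8.05 and 7.17 with DMSO. The treated array was higher at 4 h by 0.56 and lower after that, by -0.48, -0.86 and -0.68. At 24 h the treated value was not above background, so that difference is bounded by background. The mean of -0.36 ± 0.64 (SD over 4 times) is smaller than its spread. CCL22 correlated with CXCL9 with r = 0.921 over the 8 arrays. Over 4 to 24 h CXCL9 fell by 2.24 on the log2 scale with BAY1238097 and by 1.002 with DMSO, and CCL22 fell further with BAY1238097 than with DMSO too.

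**Figure D2:**
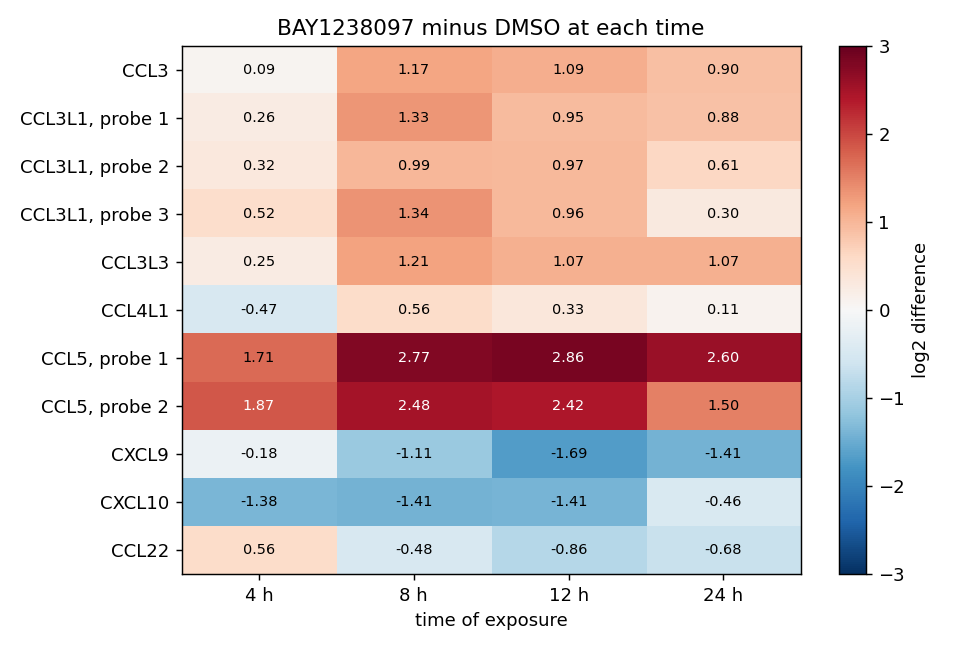
Log2 difference of BAY1238097 minus DMSO (colour and printed value) for the 11 chemokine probes above background (rows) at each time (columns, 1 array per group). CCL5 is higher with BAY1238097 at every time (1.71 to 2.86 on probe 1), CXCL9 and CXCL10 are lower at every time (-0.18 to -1.69), and CCL4L1 and CCL22 change sign after 4 h.

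The sign of each gene's difference at each of the 4 times, on its brightest probe, was the same under the deposited values, median scaling and both of these with background correction. Median scaling lowered the mean differences of the higher genes and enlarged those of the lower ones. Under it the mean difference was 2.29 for CCL5, 0.63 for CCL3, 0.71 for CCL3L3, -1.28 for CXCL9, -1.33 for CXCL10 and -0.50 for CCL22. The median of all genes was 0.01 in the deposited values and -0.07 under median scaling, and -0.10 with background correction as well. From 8 h on the DMSO arrays were brighter before normalisation, with a median log2 difference between -0.21 and -0.26, against -0.00173 at 4 h. Its part in the widening of the differences after 4 h was not tested.

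The genes most like each chemokine over the 8 arrays were read as Pearson correlations, in which all genes share treatment, time and brightness. CCL3 was followed most closely by its copy CCL3L1 (r = 0.992), by HCG4 (0.989) and by CCL3L3 (0.987). CCL3L3 had CCL3L1 (0.996), PPCS (0.992) and HAT1 (0.990). For CCL4L1 they were DTX2 (0.995), ELP6 (0.993) and BZW1 (0.991), with no other chemokine among them. The brighter CCL5 probe was most like COQ10B (0.994), SOS1 (0.982) and H2BC12 (0.980), and H2BC12 was among the 3 genes of the dimmer probe too (0.978). CXCL9 had CENPX (0.985), CLTB (0.982) and HLA-DRB3 (0.977), CXCL10 had POLR1C (0.978), NOL6 (0.978) and COPRS (0.975), and CCL22 had HLA-DRB6 (0.972), TUBB2B (0.959) and ELOC (0.953).

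Most other chemokine ligands were too dim to follow. Of 38 further ligand genes on the array, 33 were not above background and 5 were. None of the 5 passed the limma test at an adjusted p of 0.05, where 15.4% of all 10443 genes were higher and 14.5% lower. CCL20, an attractant of CCR6-bearing cells, and CCL17, a CCR4 ligand like CCL22, had an unadjusted p under 0.05. CCL20 differed by -0.17 ± 0.06 (SE, limma adjusted p = 0.0808) and passed under median scaling (0.0269). CCL17 differed by -0.18 ± 0.07 (adjusted p = 0.115), with 7.38, 6.89, 6.95 and 6.62 for BAY1238097 and 7.38, 7.04, 7.32 and 6.81 for DMSO. It passed without the 4 h arrays (0.0369) and with array weights (0.0146). Its treated value at 24 h was not above background. The neutrophil attractants CXCL8, PPBP and CXCL1 differed by -0.02, -0.01 and 0.07 (adjusted p = 0.882, 0.961 and 0.421). Their values lay close to background in both groups, where a change could hardly be seen.

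The chemokine receptors that changed were all lower. Of 22 receptor genes on the array 11 were above background, and with BAY1238097 6 of the 11 were lower and 0 higher at the threshold (14.5% and 15.4% of all genes). Their median log2 change was -0.24, against 0.01 over all genes. Among the called genes, ACKR4 passed the background filter through vehicle arrays alone, and CCRL2 and CCR2 did so mainly, which favours a lower call. With genes required to be above background on all 8 arrays, 3 ligand and receptor genes were called. ACKR4, a scavenger of CCL19, CCL21 and CCL25, read 6.69, 6.70, 6.64 and 6.56 with BAY1238097 and 7.56, 8.22, 8.28 and 8.10 with DMSO. It was above background on 0 of 4 treated and 4 of 4 vehicle arrays and was at least 2.40-fold lower (limma adjusted p = 0.00165), a bound taken against the dimmest signal above background. Its direction came with the filter, so this p is no independent support. ACKR3, a scavenger of CXCL12, fell by 0.86 ± 0.19 (SE, adjusted p = 0.0203). CCR9, the receptor of CCL25, fell by 0.65 ± 0.06 (adjusted p = 0.00155). CXCR4, the receptor of CXCL12, read 9.13, 9.46, 9.46 and 9.86 with BAY1238097 and 9.52, 9.76, 10.08 and 10.31 with DMSO. It was lower at every time, by 0.44 ± 0.07 on average (adjusted p = 0.00700), while it rose with time in both groups. CCR2, the receptor of CCL2, fell by 0.24 ± 0.05 (adjusted p = 0.0205) and was above background on 1 of 4 treated arrays.

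Among receptors that bind the 8 chemokines or resemble those that do, CCRL2, an atypical receptor that binds chemerin, fell by 0.53 ± 0.07 (SE, limma adjusted p = 0.00466), above background on 1 of 4 treated and 4 of 4 vehicle arrays. CCR1, a receptor of CCL3 and CCL5, was above background on 1 of 4 treated and 3 of 4 vehicle arrays and differed by -0.18 ± 0.07 (adjusted p = 0.105). CCR4, CXCR3, ACKR1 and ACKR2, which bind others of the 8 ligands, did not pass the background filter. CCR7, the receptor for lymph node homing, differed by 0.01, 0.09, 0.36 and 0.75 at 4, 8, 12 and 24 h (mean 0.30 ± 0.12, adjusted p = 0.124). It passed without the 4 h arrays (0.0487). CCR6, XCR1 and CX3CR1 differed by 0.06, 0.12 and -0.03 (adjusted p = 0.582, 0.389 and 0.789). Calls were lost without the 8 h or the 12 h arrays for ACKR3 (0.0843 and 0.0995) and without the 8, 12 or 24 h arrays for CCR2 (0.0974, 0.0882 and 0.0597).

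**Figure D3:**
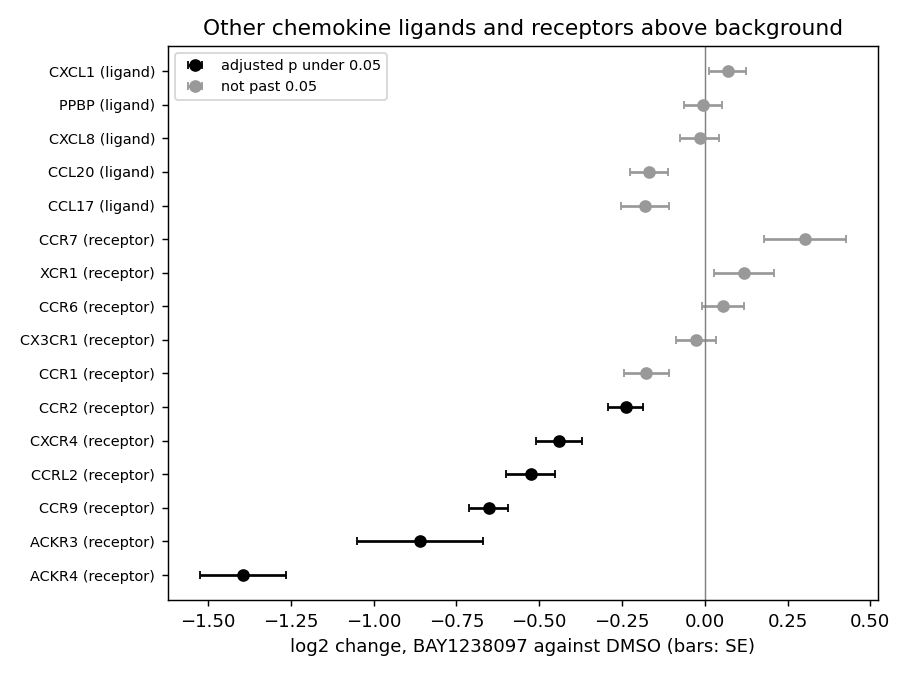
Log2 change with BAY1238097 against DMSO (horizontal axis, limma estimate, bars are SE, 4 arrays per group) of the 5 other chemokine ligands and the 11 receptors above background. Black points passed an adjusted p of 0.05, all of them receptors and all below 0. The ACKR4 point rests on treated arrays at background and stands for a bound. CCRL2 and CCR2 passed the background filter mainly through vehicle arrays.

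The signalling genes below the receptors were called about as often as genes in general. Of 19 tested, 2 were higher and 3 lower (15.4% and 14.5% of all genes), with a median of -0.03. RGS2, a brake on G protein signalling, rose by 0.99 ± 0.09 (SE, limma adjusted p = 0.00179), and the G protein subunit gene GNAI2 rose by 0.59 ± 0.10 (0.00879). RGS19, another such brake, fell by 0.74 ± 0.09 (0.00337), RASGRP2, an exchange factor that activates RAP1 for adhesion, by 0.39 ± 0.10 (0.0337), and ELMO1, which links receptors to RAC, by 0.81 ± 0.24 (0.0476). The differences of ELMO1 were 0.21 at 4 h and -1.13, -1.17 and -1.17 after that, and its call was lost without the 8, 12 or 24 h arrays (0.185, 0.186 and 0.123). ELMO1 had 4 probes above background, with changes of -0.81 to -0.03, and the mean of its probes changed by -0.29 (0.0542). GNAI2 lost its call under median scaling (0.0648) and RASGRP2 without the 8, 12 or 24 h arrays (0.140, 0.138 and 0.0956).

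NF-kappaB, a factor family that drives CCL3, CCL5, CXCL10 and CCL22 in activated cells, was read through 19 genes. Of these, 2 rose and 1 fell (15.4% and 14.5% of all genes), and the median was 0.02. NFKBIA, the inhibitor that NF-kappaB itself induces, rose by 1.10 ± 0.11 (SE, limma adjusted p = 0.00214). It read 13.15, 13.05, 12.54 and 12.48 with BAY1238097 and 12.37, 12.06, 11.40 and 10.99 with DMSO, so every treated array was above every vehicle array. NFKBIZ, a nuclear cofactor, rose by 0.73 ± 0.14 (0.0130) on its brighter probe. Its 2 probes above background disagreed, with changes of 0.726 and 0.045. NFKBIE, another inhibitor, fell by 0.65 ± 0.14 (0.0199), with -1.10 at 4 h and -0.12 at 24 h. Calls of NFKBIZ and NFKBIE were lost without the 8 h arrays (0.0617 and 0.0913) or the 12 h arrays (0.0679 and 0.0936).

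Interferon receptors, JAK kinases and interferon regulatory factors, the route to CXCL9 and CXCL10, showed 4 higher and 2 lower genes of 16. The shares over all genes were 15.4% and 14.5%, and the median of the list was 0.08. IRF7 rose by 0.76 ± 0.18 (SE, limma adjusted p = 0.0226), IRF8 by 0.63 ± 0.11 (0.00994), JAK1 by 0.52 ± 0.10 (0.0122) and STAT3 by 0.51 ± 0.09 (0.0110). IRF1, which binds interferon response elements, fell by 0.37 ± 0.08 (0.0216), and IRF2, its antagonist, by 0.28 ± 0.07 (0.0304). Without the 8 h or the 12 h arrays the calls of IRF1 (0.0667 and 0.110), IRF2 (0.0602 and 0.138), IRF7 (0.110 and 0.0884), IRF8 (0.0613 and 0.0546) and JAK1 (0.0700 and 0.0608) were lost. IRF7 also lost its call under median scaling (0.0855), and its difference was 1.20 at 4 h and 0.09 at 24 h. The mean of the 2 IRF2 probes above background changed by -0.195 (0.0616).

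Targets of interferon gamma other than the chemokines were lower more often than higher. Of 14 tested, 9 were lower and 0 higher (14.5% and 15.4% of all genes), with a median of -0.38, against 0.01 over all genes. GBP1, a guanylate-binding protein gene, read 7.22, 7.18, 7.19 and 7.17 with BAY1238097 and 7.92, 8.35, 8.16 and 7.92 with DMSO, and fell by 0.90 ± 0.09 (SE, limma adjusted p = 0.00204). GBP4 fell by 0.89 ± 0.13 (0.00571) and CIITA, the master activator of MHC class II genes, by 0.77 ± 0.09 (0.00282). CIITA was above background on 1 of 4 treated and 4 of 4 vehicle arrays. It passed the background filter mainly through vehicle arrays, which favours a lower call. UBE2L6, an enzyme of ISG15 conjugation, fell by 0.68 ± 0.13 (0.0136). The other 5 were the peptide transporter genes TAP1 and TAP2 and the immunoproteasome genes PSMB8, PSMB9 and PSMB10, with changes of -0.27 to -0.63. PSMB8 had 4 probes above background, with changes of -0.747 to 0.004, and PSMB9 had 2, with -0.368 and -0.097. The median difference of the list was -0.09 at 4 h and -0.42, -0.41 and -0.51 at 8, 12 and 24 h. Calls of UBE2L6, TAP1, TAP2, PSMB8, PSMB9 and PSMB10 were lost without the 8 h arrays (0.0606 to 0.125) and without the 12 h arrays (0.0556 to 0.149).

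The B-cell receptor route, which induces CCL3 and CCL4 in B cells, moved in both directions. Of 16 signalling genes 6 were lower and 2 higher (14.5% and 15.4% of all genes), with a median of -0.23. PTPN6, a phosphatase that restrains the receptor, fell by 0.93 ± 0.08 (SE, limma adjusted p = 0.00125). It was above background on 1 of 4 treated and 4 of 4 vehicle arrays. PTPN6 thus passed the background filter mainly through vehicle arrays, which favours a lower call. The kinase gene BTK fell by 0.86 ± 0.12 (0.00475) and the receptor chain gene CD79B by 0.63 ± 0.18 (0.0437), while CD79A was at -0.48 ± 0.15 (0.0596). CD79A had 3 probes above background, with changes of -0.475 to -0.034. The other 3 that fell were INPP5D, PIK3CD and VAV1, by 0.36, 0.37 and 0.40. Without the 8 h or the 12 h arrays the calls of INPP5D (0.0791 and 0.101) and PIK3CD (0.0838 and 0.0883) were lost. INPP5D also lost its call without the 24 h arrays (0.0522), and the mean of its 2 probes changed by -0.18 (0.0810). The kinase genes LYN and PRKCB rose by 0.32 ± 0.08 (0.0292) and 0.36 ± 0.10 (0.0364), and both calls were lost under median scaling (0.261 and 0.339). PRKCB had 5 probes above background, with changes of 0.002 to 0.356, and the mean of its probes changed by 0.164 (0.0967). The call of CD79B was lost when the 4, 8 or 12 h arrays were left out (0.0516, 0.171 and 0.102).

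Genes that respond early to the same receptor were higher more often than lower. Of 16 tested, 6 were higher and 1 lower (15.4% and 14.5% of all genes), with a median of 0.20. CD69, an activation marker of lymphocytes, rose by 1.63 ± 0.14 (SE, limma adjusted p = 0.00144). It read 11.90, 11.52, 11.28 and 11.66 with BAY1238097 and 10.79, 9.91, 9.49 and 9.64 with DMSO. The transcription factor genes ATF3, JUN and EGR1 rose by 1.32 ± 0.25 (0.0120), 1.32 ± 0.10 (0.00108) and 1.17 ± 0.07 (0.000585). FOSB rose by 0.36 ± 0.10 (0.0403), and FOS, above background on 4 of 4 treated and 0 of 4 vehicle arrays, was at least 1.22-fold higher (0.0189). FOS passed the background filter through treated arrays alone. Its direction came with the filter, so its p is no independent support. MYC was the 1 that fell. Calls of ATF3 and MYC were lost without the 8 h arrays (0.0694 and 0.0644), and those of FOS and FOSB without the 8 h or the 12 h arrays.

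Genes that mark activated antigen-presenting cells, the usual company of CCL22, were lower in 6 of 13 and higher in 2, with a median of -0.36. The shares over all genes were 14.5% lower and 15.4% higher. CD86, a co-stimulator of T cells, fell by 0.71 ± 0.10 (SE, limma adjusted p = 0.00525) and CD58, an adhesion partner of T cells, by 0.62 ± 0.10 (0.00636). CD86 had 3 probes above background, with changes of -0.711 to -0.236. BATF was at least 1.34-fold lower (0.0119) and CD80, the partner of CD86, at least 1.16-fold lower (0.0151), both above background on 0 of 4 treated arrays. Both passed the background filter through vehicle arrays alone. Their direction came with the filter, so these p-values are no independent support. IL21R and TRAF1 fell by 0.46 ± 0.10 (0.0171) and 0.48 ± 0.12 (0.0266), and EBI3 was at -0.67 ± 0.22 (0.0696). TRAF1 had 2 probes above background, with changes of -0.484 and -0.05. CD40 and IRF4 rose by 0.36 ± 0.07 (0.0145) and 0.49 ± 0.11 (0.0211). Of these, CD80, CD40, IL21R and TRAF1 lost their calls without the 8 h arrays (0.0716 to 0.111) and without the 12 h arrays (0.0704 to 0.117). IRF4 lost its call without the 12 h arrays (0.0801) and under median scaling (0.110). With probes required to be above background on all 8 arrays IL21R changed by -0.10 (0.243).

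**Figure D4:**
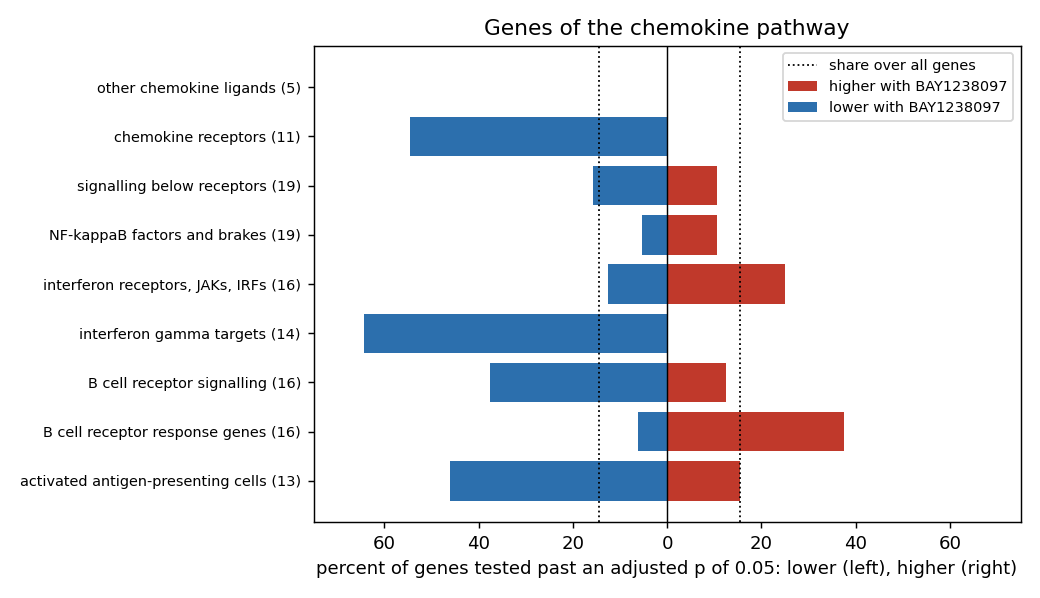
Share of the tested genes of each list (number tested in parentheses) past a limma adjusted p of 0.05, in percent, with genes lower with BAY1238097 to the left of 0 and higher ones to the right. Dotted lines give the shares over all genes (14.5% lower, 15.4% higher). Receptors and interferon gamma targets had calls on the lower side alone (6 of 11 and 9 of 14), and the early response genes of the B-cell receptor mainly on the higher side (6 of 16). ACKR4, FOS, BATF and CD80, counted here, passed the background filter only through the group where they were higher. CCRL2, CCR2, CIITA and PTPN6, also counted, passed it mainly through vehicle arrays.

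The difference between the groups changed with time for few genes. Over all genes the slope of the difference on log2 hours was positive in 1.88% and negative in 1.78%. It was positive for the B-cell activation genes CD69 (0.35 ± 0.06 per doubling of time, SE, limma adjusted p = 0.0358) and CD83 (0.43 ± 0.08, 0.0363), and negative for ATF3 (-0.66 ± 0.07, 0.0249). For NFKBIZ it was 0.35 ± 0.06 (0.0325), for IRF7 -0.44 ± 0.07 (0.0328) and for PSMB8 -0.41 ± 0.08 (0.0389). All 6 slopes lost their calls with linear hours (0.0924 to 0.196) and with array weights (0.0555 to 0.124), and those of CD69, CD83 and NFKBIZ under median scaling too (0.0924, 0.0552 and 0.0868). On the mean of a gene's probes the calls of NFKBIZ, IRF7 and PSMB8 were lost as well (0.0882, 0.0637 and 0.0865). For MYC, whose negative difference shrank, the slope was 0.54 ± 0.08 (0.0289). That call was lost with linear hours (0.15) and with array weights (0.0738). No other ligand and no receptor passed, and the nearest was CCR7 (adjusted p = 0.0602).

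Along time within a group, 4.64% of genes rose and 3.81% fell with BAY1238097, and 2.53% rose and 3.08% fell with DMSO. CXCR4 was the 1 receptor to pass, rising by 0.27 ± 0.05 per doubling of time with BAY1238097 (SE, limma adjusted p = 0.0258) and by 0.32 ± 0.05 with DMSO (0.0360). NFKBIA fell by 0.56 ± 0.08 with DMSO (0.0360), and MYC rose by 0.59 ± 0.06 with BAY1238097 (0.00823). No time trend passed in either group with arrays scaled by their medians. The slope of CXCR4 was then larger, at 0.43 with BAY1238097 (0.0863) and 0.56 with DMSO (0.0713), and that of NFKBIA with DMSO was -0.36 (0.0860).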

How the data were processed

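RNA of DOHH2 cells was labelled and hybridised to 8 Illumina bead arrays, per the labels' protocols. The authors deposited 1 linear intensity per probe, without normalisation or background subtraction, judging by the values; 10 further unnamed columns of that table were empty. The authors also deposited log2 values, which quantile normalization of the log2 intensities matched within 0.00126, so they carry no background correction. What else was done to them is unknown.

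Groups and times came from the labels. Arrays of 1 time were taken as pairs, since deviations from the group means correlated within each time (r = 0.60, 0.40, 0.67 and 0.48 at 4, 8, 12 and 24 h). Probe genes came from the platform annotation: 30113 probes had 1 symbol, 8 several and 17110 none. The planned design allowed for detection p-values; without them, 437 olfactory receptor probes gave the background. A probe was kept if under 0.05 of these were as bright on at least 4 of 8 arrays (18640 probes). A gene was represented by its brightest kept probe (10443 genes).

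Tests used limma 3.58.1 in R 4.3.3, with time as a factor for the treatment effect, log2 hours for slopes, and Benjamini-Hochberg adjustment over the 18640 probes at 0.05. Bare values in parentheses after a change are adjusted p-values of that fit. Sequences were read with Biopython 1.88 and figures drawn with matplotlib 3.10.9 in Python 3.11.15. The steps were tested on simulated data.

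The 8 genes and the gene lists were chosen with earlier results of these data known. Named genes are all probes of the 8 genes, every other ligand above background, receptors of the 8 genes, up to 4 genes of each list by size of change, and MYC and HEXIM1. Other genes named, such as CXCR4, CCR2, CCR7, IRF1 and those of the time slopes, were chosen after their values were seen. Alternatives were other scalings, background correction, filters, probe rules, array weights, a variance trend, linear hours, no time block and leaving out each time.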

Additional observations from a re-analysis of the deposited data

Results flagged for a closer look

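Within each group of 4 arrays, and among the 4 differences, the most distant value was set against the range of the 4, as a description. Of 33 such sets over the 11 chemokine probes above background, 4 held a value far from its neighbours. The rate of about 1 in 20 that holds for independent replicates does not apply, since the 4 values are times of 1 course and the sets share arrays and transcripts. The CCL3L3 difference at 4 h was 0.246, below the 3 later ones, and its gap took 0.857 of the range. CXCL9 with DMSO read 8.469 at 24 h, below the other 3 vehicle arrays (0.906 of the range). CCL22 with DMSO was also lowest at 24 h, at 7.174 (0.87 of the range). The CXCL10 difference at 24 h was -0.462, nearer 0 than the other 3 (0.967 of the range). With 1 array per group and time, these values have no replicate at their own time.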

How the results depend on the processing

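The mean differences of 7 of the 8 chemokines kept their sign under every alternative run. That of CCL4L1 ranged between -0.012 without the 8 h arrays and 0.333 without the 4 h arrays. The treatment effect gave 3130 genes. Leaving out the arrays of 1 time gave 1154 (12 h) to 4109 (4 h), array weights 4801, and no replicate block, with time left out, 1447. Chemokine ligand and receptor genes called numbered 6, with 3 where genes had to be above background on all 8 arrays and 3 without the replicate block. Calls for treatment by time numbered 382, with 93 to 1261 when the arrays of 1 time were left out, 9 with array weights and 0 with linear hours (1764 genes at an unadjusted limma p under 0.05). DMSO trends numbered 586, with 0 to 2147 when the arrays of 1 time were left out, 910 after background correction with quantile normalization, 203 without a filter and 1052 with a variance trend. They numbered 0 under median scaling (3849 at an unadjusted p under 0.05), 0 with background correction as well (4346), 0 with array weights (3132) and 0 with linear hours (1777). BAY1238097 trends numbered 883, with 1 to 1487 when the arrays of 1 time were left out, 15 with array weights, 25 with linear hours, 0 under median scaling (2617) and 0 where background correction was added to it (2728). The DMSO slope of MALT1 turned to 0.016 in that last setting. Among treatment calls 51.5% were higher, 25.0% under median scaling and 22.1% with background correction as well. The 74 named genes had 1092 alternative values, of which 128 lost their call, 34 gained one and 0 reversed. The causes were not tested. Nearness to background limits the late values of CCL22 and CCL4L1 and those of ACKR4, CCRL2, CCR1 and CCR2. It also limits those of CCL17, CXCL8, PPBP, CXCL1, XCR1, CX3CR1, FOS, BATF, CD80, CIITA and PTPN6.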
